A study of Homo sapiens with 6 samples.

Results

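The genes described here are 10 genes of the YAP/TAZ and TEAD pathway, chosen by symbol. They comprise the coactivators YAP1 and WWTR1 (which encodes TAZ), the DNA-binding factors TEAD1 and TEAD4, the kinases LATS1 and LATS2, the angiomotin family members AMOTL1 and AMOTL2, and the target genes ANKRD1 and AXL. All 10 are among the 19792 gene symbols of the deposited table. The RNA came from BT-549 cells, a human line of triple-negative breast cancer, carrying a WDR5 shRNA that doxycycline (DOX) switches on. WDR5 is a core subunit of the COMPASS H3K4 methyltransferases, and the shRNA was present in all 6 libraries. Of these, 3 were from cells given vehicle (0.1% DMSO) and 3 from cells given 500 ng/ml DOX, for 7 days. The measured value analysed here is the authors' mean normalized count, taken over all 6 libraries together. It has no replicate error, and the levels with and without DOX are merged in it, so DOX and vehicle were not compared and no statement on WDR5 silencing is made. The targeted gene itself, WDR5, had an authors' mean of 1143 over the libraries of both groups, which is therefore no check of the silencing.

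In the Hippo pathway, the kinases STK3 and STK4 activate LATS1 and LATS2, which phosphorylate YAP and TAZ and keep them out of the nucleus. When the kinases are quiet, for example in spread cells on a stiff matrix, YAP and TAZ enter the nucleus and bind TEAD factors to switch on target genes. Angiomotin proteins hold YAP and TAZ in the cytoplasm, and AMOTL2 is itself a known target of the pathway. High YAP and TAZ activity is well known in mesenchymal, triple-negative breast cancer cells.

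ANKRD1 had almost no reads, and the letters of the TEAD core motif occur in the stretch before its start. The 250 bases before the RefSeq transcript start (GRCh38.p14) of 3 genes are shown to set it beside well expressed genes whose windows hold the same letters, with the TEAD core motif GGAATG, on either strand (CATTCC), in capitals. The ANKRD1 window is on the minus strand at chr10:90921088-90921337, the YAP1 window on the plus strand at chr11:102110197-102110446, and the AMOTL2 window, before the inner of its 2 starts, on the minus strand at chr3:134374448-134374697.
ANKRD1: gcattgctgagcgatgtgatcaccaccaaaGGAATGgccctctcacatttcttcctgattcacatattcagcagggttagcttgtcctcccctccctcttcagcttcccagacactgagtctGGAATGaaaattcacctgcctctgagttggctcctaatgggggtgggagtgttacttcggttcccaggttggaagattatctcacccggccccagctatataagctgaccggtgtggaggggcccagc
YAP1: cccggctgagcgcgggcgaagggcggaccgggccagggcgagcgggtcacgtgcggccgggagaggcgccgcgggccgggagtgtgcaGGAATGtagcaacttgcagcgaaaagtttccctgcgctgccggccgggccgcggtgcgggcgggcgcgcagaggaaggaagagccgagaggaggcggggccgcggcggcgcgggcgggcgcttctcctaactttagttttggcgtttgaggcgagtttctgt
AMOTL2: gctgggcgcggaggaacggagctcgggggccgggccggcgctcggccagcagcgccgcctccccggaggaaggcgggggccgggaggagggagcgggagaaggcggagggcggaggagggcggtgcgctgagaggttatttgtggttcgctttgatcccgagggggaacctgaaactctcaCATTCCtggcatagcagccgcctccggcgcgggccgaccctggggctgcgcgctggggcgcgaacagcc

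The ANKRD1 window holds the motif at 2 places, whose first bases lie 220 and 128 bases before the start. YAP1 and AMOTL2 each have 1 match, at 162 and 69 bases. RefSeq windows were found for 8 of the 10 genes (not TEAD1 and TEAD4), 12 windows in all, and 4 of the 12 hold the motif; the fourth is the window of the inner AXL start. Of all 35114 windows of the same length, 11.9% hold it. The pattern TGANTCA, a looser form of the AP-1 motif with any middle base, was found in 2 of the 12 windows and in 6.57% of all windows. The match is TGATTCA in the ANKRD1 window and TGAATCA in a LATS1 window. Neither is the AP-1 consensus, which has C or G in the middle. The motifs are letter matches only. The 12 windows hold between 0 and 36 CpG dinucleotides, against a median of 11 over all windows. The ANKRD1 window has 4, the YAP1 window has 36, and the AMOTL2 windows have 0 and 29, of which the one with 29 is shown. The windows of the highly expressed WWTR1 have 1 and 13 and those of AXL have 4 and 13. Of 1831 genes with 0 to 5 CpG, 28.6% had a mean normalized count of at least 10. Of 4676 genes with 26 or more, 87.6% did. Whether CpG content bears on the level of these 10 genes was not tested.

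Of the 10 genes, 9 were well expressed and 1 was near silent. The authors' mean normalized count was highest for WWTR1 (10048), followed by YAP1 (6645), TEAD1 (5214), AXL (5147), AMOTL2 (3659), AMOTL1 (2620), LATS1 (2225), LATS2 (1261) and TEAD4 (618). ANKRD1 had an authors' mean of 0.469. For comparison, the median over all 19792 genes was 187, and 424 genes lay above WWTR1. TEAD4, the lowest of the 9, was near the middle of stricter backgrounds. It lay above 55.5% of protein-coding genes and above 48.0% of genes with a mean of at least 10. ANKRD1 was lower than 17622 genes.

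**Figure D1:**
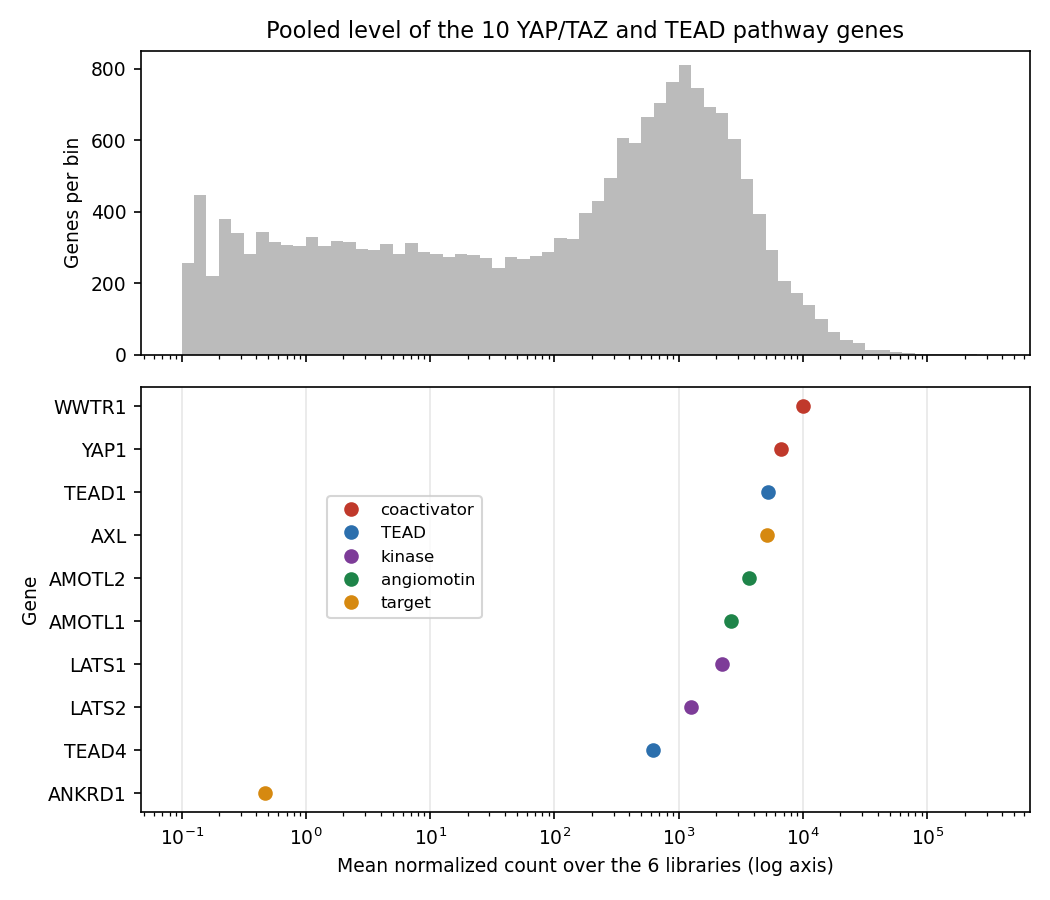
Authors' mean normalized count over the 6 libraries (log axis) for all 19792 genes, as the number of genes per bin (top), and for each of the 10 genes, coloured by role (bottom; 1 point per gene, no error because the value is 1 mean). Of the 10 points, 9 lie between 618 and 10048 and ANKRD1 lies at 0.469, in the flat left part of the histogram.

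The lowest values of the table showed how many reads stand behind ANKRD1. A gene with 1 read in 1 library has a mean equal to 1 read divided by that library's scaling factor and by 6, and 1257 genes sat at exactly 6 such values, from 0.124 to 0.226. The scaling factors were therefore 1.34, 1.16, 1.16, 0.967, 0.793 and 0.737, a 1.82-fold range in depth. Which library belongs to which group is not shown by these values and was not inferred. All 2272 values below 0.5 were sums of whole reads to within 1e-09. The ANKRD1 value was reached by 1 combination of up to 8 reads, which was 1 read in the deepest library and 2 reads in the library with a factor of 0.967. The other 4 libraries had none. These 3 reads have a 95% exact Poisson interval of 0.619 to 8.77 reads, which covers counting error only. In bulk RNA, a few cells with the transcript and less of it in every cell cannot be told apart.

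**Figure D2:**
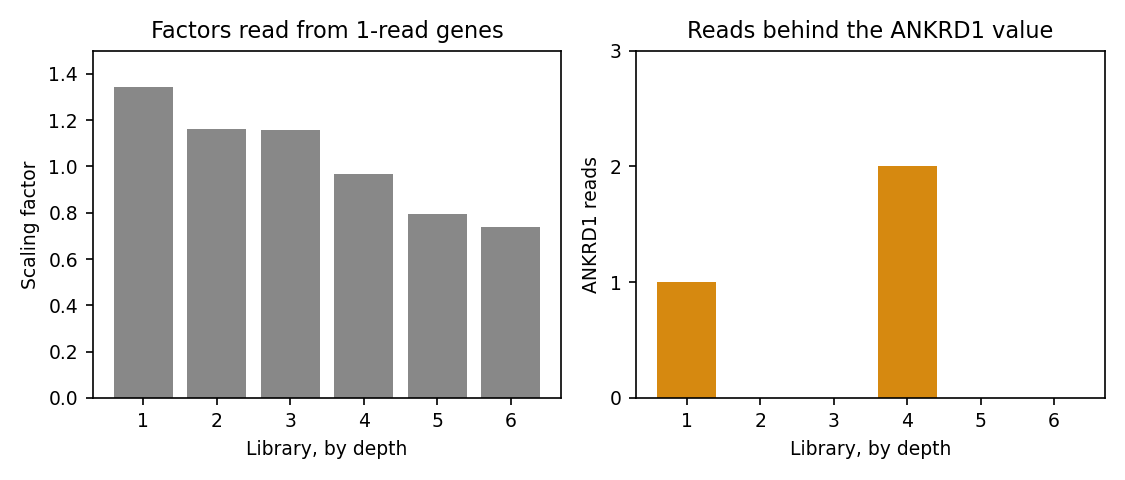
Scaling factor of each library, read from the genes with 1 read (left), and the ANKRD1 reads in each library (right), with libraries numbered from the deepest to the shallowest and no group assigned. The factors fall from 1.34 to 0.737, and the 3 ANKRD1 reads lie in 2 of the 6 libraries.

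The other 9 genes rest on far more reads. If each library's total scales with its factor, the libraries held about 19600000 to 35700000 counted reads, and TEAD4 and WWTR1 had about 3811 and 61910 reads over all 6. The counting error of the mean was between 0.411% for WWTR1 and 1.66% for TEAD4, were the level the same in all libraries. The spread between cultures and any difference between DOX and vehicle come on top of it and could not be measured from a pooled mean.

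Longer transcripts collect more reads, so levels of different genes were compared per kilobase of merged exons (GENCODE 44). On this scale WWTR1 had 1203, YAP1 1053 and AXL 1002 mean normalized counts per kilobase. AMOTL2 followed with 565 and TEAD1 with 487 per kilobase. TEAD4 (272), LATS1 (262), AMOTL1 (261) and LATS2 (225) formed a lower group, whose first 3 values per kilobase differ by a few percent. ANKRD1 had 0.262 per kilobase. Among the protein-coding genes of the table, whose median was 79.5 per kilobase, 9 of the 10 genes were above the median and 3 (WWTR1, YAP1 and AXL) were above the 90th percentile, which lay at 722. TEAD4, last of the 9 by count, was sixth per kilobase of merged exons, which span 2275 bases, and eighth per kilobase of coding sequence.

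The coactivators YAP and TAZ share partners and targets. YAP1 (ENSG00000137693.14) lies on chromosome 11 of GRCh38 from 102110447 to 102233424, and WWTR1 (ENSG00000018408.15) on chromosome 3 from 149517235 to 149736714. Per kilobase of merged exons WWTR1 was 1.14 times YAP1. The ratio was 1.62 with the longest transcript, 1.92 with the coding sequence and 4.38 with the median coding transcript, which for WWTR1 is only 826 bases long. WWTR1 was the higher under all 4 lengths, and the size of the ratio depended on the length. The antisense gene WWTR1-AS1 shares 756 exonic bases with WWTR1 (9.05% of its merged exons) and had an authors' mean of 5.77. YAP1 shares 628 exonic bases (9.95%) with an antisense long noncoding RNA gene, ENSG00000254422, for which no value was found. In this table the symbol TAZ has its own row, but TAZ is also an older symbol of TAFAZZIN, a mitochondrial enzyme gene, and that row was not used.

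TEAD factors bind DNA and need YAP, TAZ or another partner to activate genes. TEAD1 (ENSG00000187079.20, chromosome 11, 12674421 to 12944737) was 1.79 times TEAD4 (ENSG00000197905.10, chromosome 12, 2959330 to 3040676) per kilobase of merged exons, and between 1.53 and 8.59 times under the other lengths. The remaining family members are not among the 10 genes. TEAD2, at 867 per kilobase of merged exons, was above both, and TEAD3, at 118, below both. TEAD1 and TEAD4 made up 27.9% and 15.6% of the family's sum per kilobase, and TEAD2 49.7%. With other lengths the share of TEAD1 ran from 26.4% to 60.5% and that of TEAD2 from 28.3% to 50.6%, so which of these 2 leads the family depends on the length. The coactivator transcripts together were 1.29 times the TEAD transcripts together per kilobase of merged exons, and 1.54 to 3.92 times with the other lengths.

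**Figure D3:**
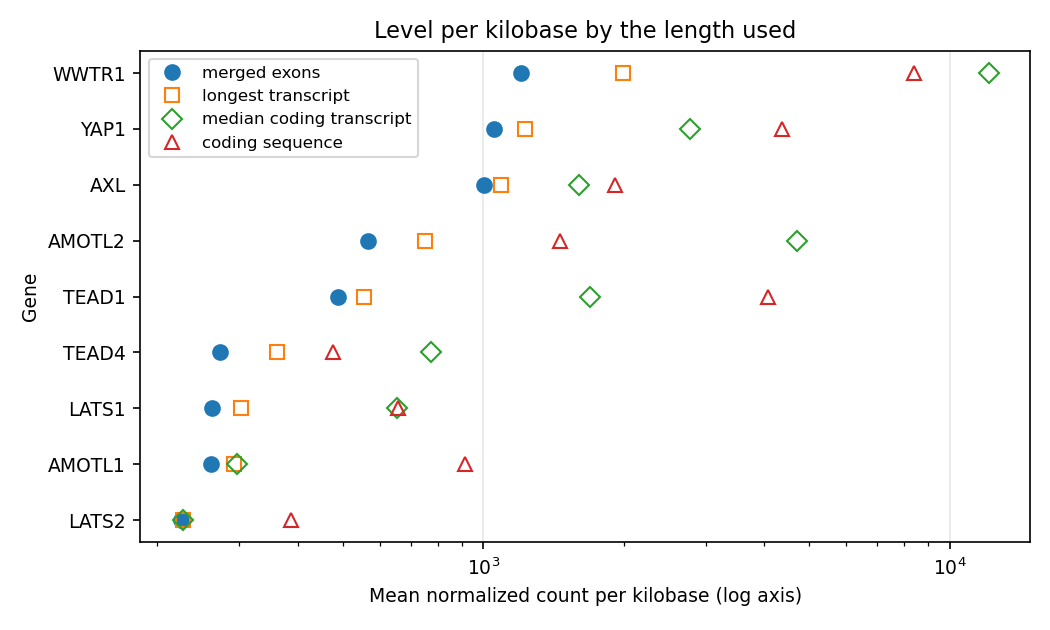
Mean normalized count per kilobase (log axis) of the 9 expressed genes, with each gene's count divided by 4 different lengths (1 marker per length, no error because the value is 1 mean). WWTR1 is highest and LATS2 lowest with every length, LATS1 is seventh with each of the 4, and the places of the other 6 depend on the length.

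The kinases LATS1 (ENSG00000131023.13, chromosome 6, 149658153 to 149718105) and LATS2 (ENSG00000150457.9, chromosome 13, 20973036 to 21061586) inhibit YAP and TAZ. They were close per kilobase of merged exons, with LATS1 1.17 times LATS2, and LATS1 was higher under each of the other lengths as well (1.33 to 2.87 times). The angiomotins were less alike. AMOTL2 (ENSG00000114019.15, chromosome 3, 134355347 to 134375479) was 2.16 times AMOTL1 (ENSG00000166025.18, chromosome 11, 94706431 to 94876748) per kilobase of merged exons, and between 1.59 and 15.9 times under the other lengths. The founding member of the family, AMOT, had only 19.2 per kilobase of merged exons and 2.27% of the family's sum. A processed pseudogene, RPL39P5, lies in AMOTL2 on the same strand and shares 187 exonic bases, or 2.89% of its merged exons.

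The 2 genes grouped here as targets were far apart. AMOTL2, itself a known target, lay between them with 565 per kilobase of merged exons. AXL (ENSG00000167601.12, chromosome 19, 41219223 to 41261766) encodes a receptor tyrosine kinase linked to mesenchymal and drug-resistant tumour cells. ANKRD1 (ENSG00000148677.7, chromosome 10, 90912096 to 90921087) encodes an ankyrin repeat protein of heart muscle and is widely used as a readout of YAP activity. Per kilobase of merged exons AXL was 3830 times ANKRD1, with a 95% interval from 1310 to 18571 that covers only the counting error of the 3 ANKRD1 reads. Other common targets, from a list of 12 that does not include these 2, were also far apart: 6 were above the 90th percentile of protein-coding genes per kilobase, 3 between it and the median, and 3 below the median. The matricellular genes CCN1 and CCN2, listed in the table under older symbols, had 2642 and 1829 per kilobase of merged exons, and NT5E, which encodes the surface enzyme CD73, had 4793. MYOF (2923), IGFBP3 (2025) and ASAP1 (972) were the others above the 90th percentile. NUAK2 (62.8), ARHGEF17 (49.3) and F3 (4.83), the gene of coagulation tissue factor, were below the median. Low ANKRD1 thus stood beside high CCN1 and CCN2 in these cells; the ratio of CCN1 to ANKRD1 per kilobase was 10092 (3453 to 48936, counting error of ANKRD1 only).

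Of 38 other pathway genes looked up, 37 were found and 36 had a mean normalized count of at least 10, as did 13548 of all 19792 genes and 12163 of the 15542 protein-coding genes. Their median was 198 per kilobase of merged exons, against 380 for the 10 genes, and 28 of the 37 were above the median of protein-coding genes. The 5 genes of the core kinase module lay between 174 (MOB1B) and 638 (MOB1A) per kilobase, with STK3 at 283 and STK4 at 291, a span that holds both LATS genes. Among the 10 upstream regulators, MAP4K4 was highest with 611 per kilobase and the protocadherin gene DCHS1 lowest with 2.41. Of the VGLL cofactors, which compete with YAP and TAZ for TEAD factors, VGLL3 had 477 and VGLL2 3.68 per kilobase, and VGLL1 was not found. Among the 5 other inhibitors and adaptors, the LIM-domain genes AJUBA and WTIP were highest and lowest, with 260 and 8.86 per kilobase.

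**Figure D4:**
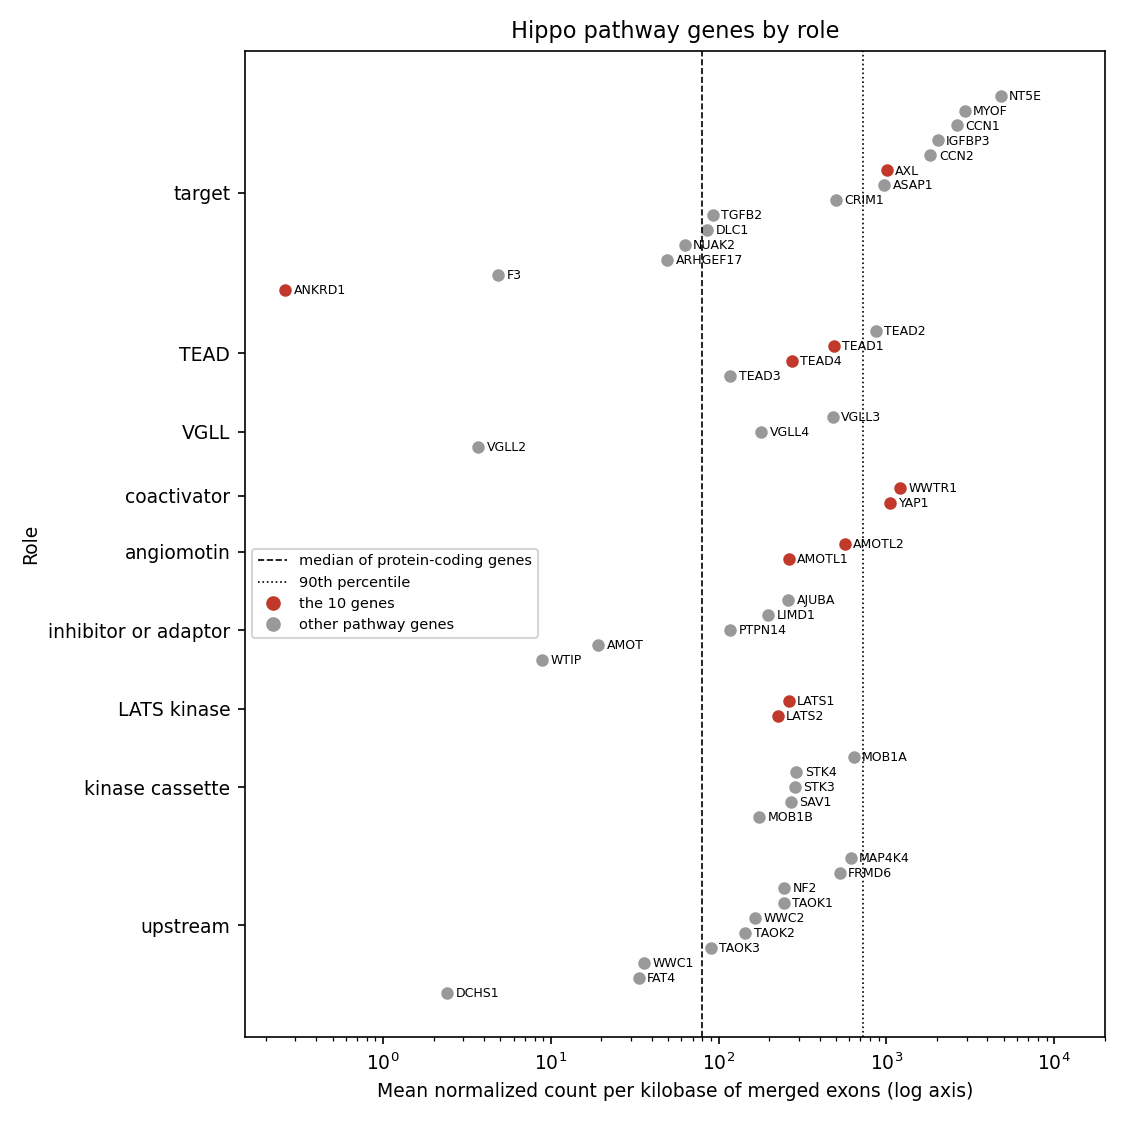
Mean normalized count per kilobase of merged exons (log axis) of the 10 genes (red) and 37 other pathway genes (grey), by role, 1 point per gene and no error because the value is 1 mean. Dashed and dotted lines mark the median (79.5) and the 90th percentile (722) of protein-coding genes; YAP1, WWTR1 and AXL are to the right of both, and ANKRD1 is the point farthest to the left.

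The label of the cells was checked against marker genes. The 5 mesenchymal markers VIM, CDH2, ZEB1, FN1 and SPARC had authors' means between 4093 (CDH2) and 47782 (VIM). Of the 6 luminal markers, the receptor genes ESR1 and PGR had 5 reads each over all 6 libraries. KRT19 and KRT8 had authors' means of 17.7 and 57.3, and GATA3 and KRT18 had 362 and 435. By count GATA3 and KRT18 were below the median of protein-coding genes (451). Per kilobase of merged exons, with 107 and 142, GATA3 and KRT18 were above it (79.5). The epithelial genes CDH1 and EPCAM had authors' means of 59.6 and 1.30. The 3 endothelial markers PECAM1, CDH5 and VWF were between 0.172 and 2.86. Of the leukocyte markers, PTPRC had 44.7, CD14 24.0, and CD3E was not found. The fibroblast collagen genes COL1A1 and COL3A1 had 4755 and 19022, whereas DCN had 102.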

How the data were processed

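Total RNA from 3 vehicle and 3 DOX cultures of BT-549/tet-WDR5shRNA cells was sequenced from stranded poly(A) libraries. The authors aligned reads to GRCh38 with STAR and normalized gene counts with DESeq2. The gene counter and any low-count filter are not given in the sources used here, and the annotation only as far as a suffix of the genome's name in the paper may mean a release. The lowest of the 19792 means was 0.124, which is 1 read in the deepest library. Genes without reads are therefore not among the 19792, and medians and percentiles refer to genes with at least 1 read. RNA isolation is given as a column kit in the labels and as Trizol in the paper. The deposited signal value used is the authors' mean normalized count over all 6 libraries. The other 5 columns hold the authors' own comparison of DOX with vehicle (log2 fold change, standard error, statistic, p-value and adjusted p-value) and were not used. With no value per library at hand, no test was run.

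Symbols were matched to GENCODE 44 (17729 directly, 581 through older RefSeq symbols and 1482 not matched), which leaves 15542 protein-coding genes. The count minimum was 10. Scaling factors were read from the 6 lowest values that sums of smaller ones do not give, a step tested on simulated data. Promoter windows are the 250 bases before RefSeq starts. The genes named are the 10 genes, WDR5, marker genes and, of the other pathway genes, the extremes of each role and paralogs. CCN1, CCN2, MYOF, IGFBP3, ASAP1, NUAK2, ARHGEF17, STK3 and STK4 were added to these after values were seen. The 10 genes and the lists were chosen with earlier results of these data known. Alternatives were 3 other lengths and 2 other gene backgrounds. Python 3.11.15, numpy 2.4.6, pandas 2.3.3, scipy 1.17.1 and matplotlib 3.10.9 were used.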

Additional observations from a re-analysis of the deposited data

How the results depend on the processing

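No paired analysis was possible because the deposited table holds 1 mean over all 6 libraries and no value of a single library. For the same reason the count test and its alternatives (DESeq2, no filter, other pseudocounts, leaving out each library) were not run. All 10 genes were found by exact symbol, and older symbols added none. The median percentile of the 10 genes by mean normalized count was 89.6 among all genes, 84.8 among genes with a mean of at least 10 and 86.9 among protein-coding genes. Their median level per kilobase was 380 with merged exons, 458 with the longest transcript, 1189 with the median coding transcript and 1185 with the coding sequence, because these lengths are shorter. WWTR1 stayed the highest and LATS2 the lowest of the 9 expressed genes under all 4 lengths. The log2 ratio per kilobase of TEAD1 to AXL, -1.04 with merged exons, turned to 0.079 with the median coding transcript and 1.09 with the coding sequence, and that of AMOTL2 to AXL, -0.83, turned to 1.55 with the median coding transcript. The isoforms that these cells use were not measured, so no length is known to be the right one. A pooled mean cannot show how any of the 10 genes varied between cultures.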
